A study of Mus musculus with 3 samples.

Results

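The 10 genes described here encode the main glucose transporter and 9 enzymes of glycolysis. They are Slc2a1, Hk1, Hk2, Pfkp, Aldoa, Tpi1, Pgk1, Eno1, Pkm and Ldha. They were chosen by gene name, and each matched 1 row of a table of 51826 gene rows. Messenger RNA was measured in 3 libraries of ST2 cells, stromal cells of mouse bone marrow that differentiate into osteoblasts or adipocytes when induced. Every culture was transfected with a plasmid and an siRNA, the latter at 30 nM for Fn1 by the labels. The control received the empty plasmid with a control siRNA, NELL2 overexpression the NELL2 construct with that control siRNA, and Fn1 knockdown the empty plasmid with Fn1 siRNA. The labels give DMEM as the growth medium and the study's methods α-MEM, so the glucose supply is not settled. There was 1 library in each group, so differences below come without p-values or any check by replicates. The study compared these libraries to ask which genes lie downstream of NELL2, a secreted glycoprotein, and of its matrix partner fibronectin (Fn1).

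Glycolysis splits glucose into pyruvate in the cytosol and yields ATP without oxygen. Glucose enters through carriers such as Slc2a1 (GLUT1), is phosphorylated and committed by hexokinase and phosphofructokinase, and is then cleaved and oxidised in the lower part of the pathway. Lactate dehydrogenase turns pyruvate into lactate and renews the NAD+ that the lower part needs. Osteoblasts and their stromal precursors are known to use glucose heavily and to release lactate. Hypoxia-inducible factor and MYC are known activators of many of these genes.

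Levels are given as FPKM, the number of fragments scaled to transcript length and to the mapped total, so levels of different genes may be set beside each other. Differences are given on the log2(FPKM + 1) scale. A gene was called when it differed by 1 or more on that scale, which is 2-fold in FPKM + 1, and reached 1 FPKM in either library. The labels were checked first. Where 3 values are listed, they follow the order control, NELL2 overexpression, Fn1 knockdown. Nell2 was at 0.640, 326 and 1.06 FPKM, and Fn1 at 2802, 2489 and 137 FPKM. All 8 stromal markers examined were at 7.40 FPKM or more in every library. Epithelial markers summed to 0.0619 FPKM or less, with Epcam listed at 0 in all 3 libraries, and endothelial and adipocyte markers to 1.97 FPKM or less each. Of the other cell type markers, Cd68 of the haematopoietic list was highest, at 4.08, 3.54 and 1.57 FPKM. In bulk RNA, a lower share of expressing cells and less RNA per cell cannot be told apart.

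All 10 genes were expressed in every library, and they fell into a low and a high tier. The transporter and the 3 enzymes of the committing steps lay between 21.8 and 38.6 FPKM in the control. The 6 enzymes from aldolase to lactate dehydrogenase lay between 124 and 758 FPKM. The step between the tiers, from Tpi1 to the next gene, was 3.22-fold, 4.12-fold and 3.52-fold. The tiers did not overlap in any library. Together the 10 genes took 0.593%, 0.653% and 0.634% of all FPKM.

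**Figure D1:**
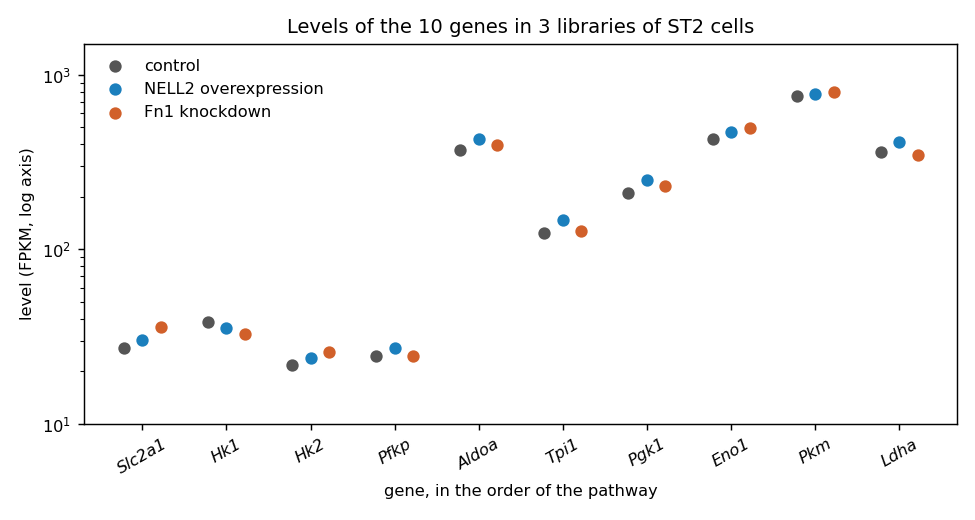
Level of each of the 10 genes in FPKM on a log axis, in the order of the pathway, with 1 point for each of the 3 libraries and no error bars because each group had 1 library. The transporter, hexokinases and Pfkp lie at 38.6 FPKM or less and the other 6 genes at 124 FPKM or more, and the 3 points of a gene lie close together.

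Pkm, which encodes the muscle-type pyruvate kinase, was the most abundant of the 10 genes. It was at 758, 780 and 798 FPKM and ranked 53, 51 and 44 among all rows. The order after it was Eno1, Aldoa, Ldha, Pgk1 and Tpi1 in every library. Neighbours in this order were 1.52-fold to 1.81-fold apart, except for Eno1, Aldoa and Ldha. Aldoa exceeded Ldha by 1.02-fold in the control, and with no replicates their order cannot be told. In the low tier the order was Hk1, Slc2a1, Pfkp and Hk2 in the control and with NELL2 overexpression. After Fn1 knockdown it was Slc2a1, Hk1, Hk2 and Pfkp. The largest distance between neighbours in the low tier was 1.41-fold, between Hk1 and Slc2a1 in the control.

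In the GENCODE M21 annotation (GRCm38) the transporter gene Slc2a1 spans chr4:119108711-119137983 on the plus strand. The hexokinase genes Hk1 and Hk2 span chr10:62268855-62379908 and chr6:82725025-82774454, and Pfkp spans chr13:6579768-6648777, all on the minus strand. Tpi1 spans chr6:124810586-124814296 on the minus strand. Pgk1 (chrX:106187100-106203699), Eno1 (chr4:150236721-150248879), Pkm (chr9:59656368-59679375) and Ldha (chr7:46841475-46855627) lie on the plus strand. The name Aldoa stands for 2 neighbouring GENCODE genes but for 1 row of the table, so its row covers 1 or both of them.

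The start regions of 3 genes are shown, chosen by their differences below. Tpi1 had the largest of the 10 genes with NELL2 overexpression. Slc2a1 and Ldha had the highest and the lowest between the NELL2 overexpression and Fn1 knockdown libraries. Slc2a1 also had the largest after Fn1 knockdown against the control. The sequences are from RefSeq (GRCm38.p6) and run 5′ to 3′ along the gene strand, from 250 bases before to 50 after an annotated start. Capitals mark the core of the hypoxia response element, ACGTG or GCGTG, on either strand. Slc2a1 is at chr4:119108495-119108794 on the plus strand, Tpi1 at chr6:124814109-124814408 on the minus strand and Ldha at chr7:46845554-46845853 on the plus strand.
Slc2a1: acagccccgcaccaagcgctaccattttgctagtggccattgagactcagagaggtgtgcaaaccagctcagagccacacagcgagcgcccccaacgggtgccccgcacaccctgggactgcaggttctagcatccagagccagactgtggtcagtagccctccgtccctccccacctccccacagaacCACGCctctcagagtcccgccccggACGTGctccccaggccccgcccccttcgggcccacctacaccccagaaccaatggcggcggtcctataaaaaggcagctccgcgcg
Tpi1: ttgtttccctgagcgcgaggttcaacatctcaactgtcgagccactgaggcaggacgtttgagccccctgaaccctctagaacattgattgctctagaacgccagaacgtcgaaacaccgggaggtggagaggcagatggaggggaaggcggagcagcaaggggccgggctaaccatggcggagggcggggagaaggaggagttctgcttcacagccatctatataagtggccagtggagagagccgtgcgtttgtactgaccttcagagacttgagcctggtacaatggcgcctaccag
Ldha: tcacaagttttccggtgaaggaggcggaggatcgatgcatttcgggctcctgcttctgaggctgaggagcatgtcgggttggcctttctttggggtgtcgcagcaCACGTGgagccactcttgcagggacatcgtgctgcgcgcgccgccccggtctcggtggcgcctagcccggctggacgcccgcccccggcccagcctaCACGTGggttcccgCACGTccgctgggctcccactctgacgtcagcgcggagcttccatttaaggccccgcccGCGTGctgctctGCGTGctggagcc
The Ldha region held 7 matches to the core, of which 4 came from 2 copies of the E-box CACGTG, a palindrome that holds the core on each strand. The Slc2a1 region held 2 matches, and this Tpi1 region held none. The 10 genes had 17 RefSeq start regions, and the core was in 13 of them (76.5%), against 43.8% of 32851 start regions of all genes. The GC box GGGCGG, searched on both strands, was in 11 of the 17 (64.7%), against 35.7% of all. CACGTG was in 1 of the 17 (5.88%), against 7.15% of all, and TATAAA in 1 (5.88%), against 13.6%. The start regions of the 10 genes were GC-rich, at 51.3% to 69.0% G and C, and some starts of 1 gene overlap. A match of letters is a description and not a bound site.

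NELL2 overexpression was compared with the control. None of the 10 genes was called, as against 0.652% of the 12572 genes tested. Their values leaned to one side, with 9 of 10 higher than in the control, while 52.3% of all tested genes were higher. All 8 stromal markers were also higher, by 0.016 to 0.43, and their summed level was 2703 FPKM in the control and 2913 FPKM with NELL2 overexpression. Mitochondrially encoded genes took 7.01%, 6.03% and 5.92% of all FPKM, highest in the control. With these genes left out of the sum, 9 of the 10 differences remained positive and their median was 0.13. The part of the stromal markers in the result was not tested. The differences ran from -0.11 to 0.24 with a median of 0.14, and the median of all tested genes was 0.0072. With a looser limit of 1.1-fold, chosen after the data were seen, 7 of the 10 genes were higher, against 18.7% of all tested genes. Slc2a1, Pfkp and Eno1 lay just over this limit, and the 7 became 4 with median-of-ratios scaling or when mitochondrially encoded genes were left out of the sum. None of the 10 was lower by that limit, against 16.0% of all. Among the 6150 genes at 10 FPKM or more in the control, 13.9% were higher by 1.1-fold.

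The 4 largest values in this comparison were those of Tpi1, Pgk1, Aldoa and Ldha. Tpi1, the isomerase that interconverts both triose products of aldolase, was at 124 FPKM in the control and 147 FPKM with NELL2 overexpression. The difference was 0.24, and 5.95% of genes at 10 FPKM or more had a higher one. Pgk1, which makes the first ATP of the pathway, was at 211 and 249 FPKM, a difference of 0.23. Aldoa, the aldolase that cleaves fructose 1,6-bisphosphate, was at 371 and 428 FPKM, a difference of 0.21. Ldha was at 362 and 412 FPKM, a difference of 0.19 with 8.98% of genes higher. These 4 genes were at 114% to 118% of their control level.

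Other members differed less from the control with NELL2 overexpression. Eno1, an enolase, was at 427 and 471 FPKM, a difference of 0.14. Slc2a1 was at 27.3 and 30.2 FPKM, also a difference of 0.14. Pfkp, the platelet-type phosphofructokinase, was at 24.6 and 27.2 FPKM, again a difference of 0.14. Hk2, the inducible hexokinase, was at 21.8 and 23.8 FPKM (0.12), and Pkm was at 103% of the control (0.040). Hk1, the hexokinase found in most tissues, was the exception to the direction, at 38.6 and 35.6 FPKM, a difference of -0.11.

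Fn1 knockdown gave a more mixed picture. None of the 10 genes was called, against 1.23% of 12574 genes tested. The difference from the control was positive for 7 of 10 and negative for 3, and 49.5% of all tested genes were higher. The values ran from -0.24 to 0.39 with a median of 0.087, against a median of -0.0028 for all tested genes. By the 1.1-fold limit 3 genes were higher and 1 was lower, against 27.1% and 28.4% of all tested genes. The spread of all genes was wider here, with a standard deviation of 0.34 against 0.25 with NELL2 overexpression. The stromal markers differed from the control in both directions, from -0.15 to 0.47, and their summed level was 2703 FPKM in the control and 2506 FPKM after Fn1 knockdown. Haematopoietic markers summed to 5.73 and 3.01 FPKM. The part of these markers in the result was not tested.

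Slc2a1, both hexokinases and Eno1 had the differences of largest size after Fn1 knockdown. Slc2a1 was at 27.3 FPKM in the control and 36.0 FPKM after knockdown, which is 132% of the control and a difference of 0.39. Of genes at 10 FPKM or more, 5.92% had a higher difference. Hk2 was at 21.8 and 25.8 FPKM (0.24), and Hk1 was at 38.6 and 32.5 FPKM (-0.24), so the hexokinases differed in opposite directions. Eno1 was at 427 and 496 FPKM, a difference of 0.22.

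The 6 remaining genes stayed closer to the control level after Fn1 knockdown. Pgk1 was at 211 and 229 FPKM (0.12), Aldoa at 371 and 397 FPKM (0.099) and Pkm at 758 and 798 FPKM (0.074). Tpi1 was at 124 and 127 FPKM, a difference of 0.029. Pfkp was at 24.6 FPKM in both, with a difference of -0.0027, and Ldha was at 362 and 348 FPKM, a difference of -0.055. These 6 genes lay between 96.2% and 108% of the control.

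**Figure D2:**
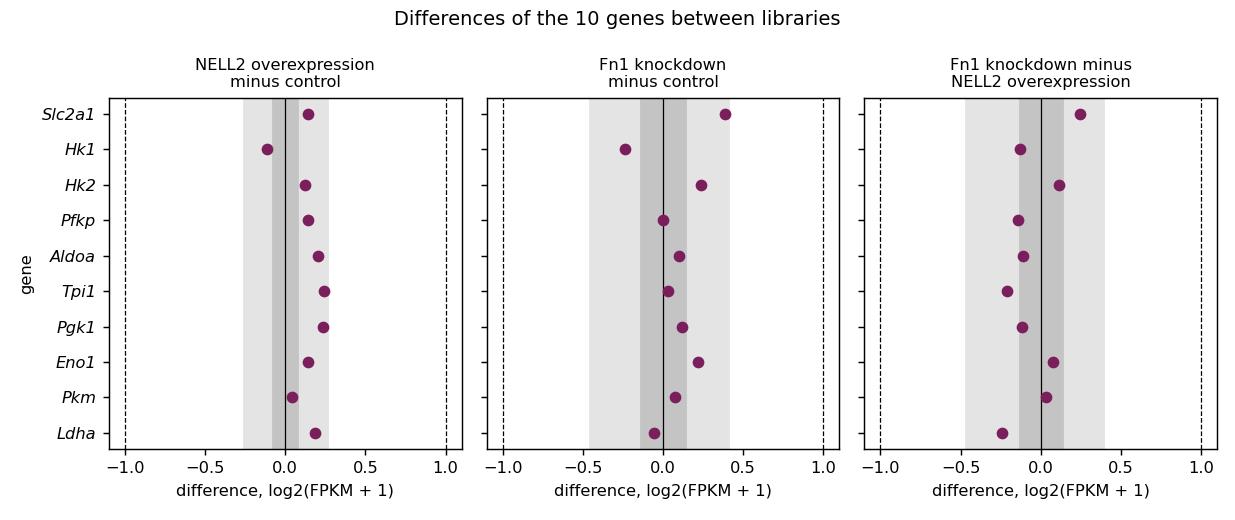
Difference in log2(FPKM + 1) for each of the 10 genes in the 3 comparisons, 1 point per gene and no error bars because each group had 1 library. Dark and light bands hold the middle 50% and 90% of the 6150 genes at 10 FPKM or more in the control, dashed lines mark 2-fold, and all 30 points lie within the light bands.

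Both comparisons above share the control library, so the treated libraries were also set against each other. None of the 10 genes was called between Fn1 knockdown and NELL2 overexpression, against 1.29% of 12596 genes tested. Here 4 of 10 genes were higher after Fn1 knockdown, against 48.1% of all tested genes. By the 1.1-fold limit 1 gene, Slc2a1, was higher and 3 genes, Tpi1, Ldha and Pfkp, were lower, against 25.4% and 28.7% of all. Pfkp fell short of the limit under each other scaling, which left 2 genes lower. Slc2a1 was at 30.2 and 36.0 FPKM with NELL2 overexpression and Fn1 knockdown, a difference of 0.24. Ldha was at 412 and 348 FPKM (-0.24), and Tpi1 at 147 and 127 FPKM (-0.21). Slc2a1, Hk2, Eno1 and Pkm were highest after Fn1 knockdown among the 3 libraries. Pfkp, Aldoa, Tpi1, Pgk1 and Ldha were highest with NELL2 overexpression, and Hk1 was highest in the control. The whole range of a gene over the 3 libraries was between 1.05-fold, for Pkm, and 1.32-fold, for Slc2a1.

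Counting error was estimated because the table holds no counts. Depths inferred from low values were close to one another, at about 23900000, 24800000 and 24800000 fragments. Taking the median over its coding transcripts as the length of each gene, the 10 genes had about 430 to 14380 fragments each, and counting alone gave a standard deviation of 0.017 to 0.095 for a log2 difference. With the longest coding transcript it was 0.0094 to 0.043. The value for Slc2a1 between NELL2 overexpression and control, 0.14, was 1.49 times the larger of its own estimates, 0.095. In that comparison Hk1 was at -0.11, with a larger estimate of 0.089. After Fn1 knockdown the differences of Tpi1 (0.029 against 0.034) and Pfkp (-0.0027 against 0.065) were smaller in size than their larger estimates. These figures cover counting only, and the spread between cultures was not measured.

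Several steps of the pathway have paralogs, and their shares within 1 library do not depend on how libraries were scaled. Hexokinase was split between Hk1 and Hk2. Of the summed hexokinase FPKM, Hk2 held 36.0%, 39.8% and 44.2%, and Hk1 held 63.8%, 59.7% and 55.7%. The sum of the 4 hexokinase genes examined was 60.4, 59.7 and 58.4 FPKM, so the balance differed more than the total. Hk3 and Hkdc1 were at 0.195 FPKM or less in every library.

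Phosphofructokinase was divided among all 3 of its genes. Pfkp held 42.0%, 39.8% and 41.1% of the step. Pfkl, the liver type, held 35.4%, 39.6% and 39.0%, and Pfkm, the muscle type, held 22.6%, 20.7% and 19.8%. The sum was 58.7, 68.4 and 59.7 FPKM. Pfkl was at 20.8, 27.1 and 23.3 FPKM and thus differed more from the control than Pfkp did.

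The later steps were carried mainly by 1 gene each. Aldoa held at least 99.8% of aldolase FPKM in every library and Ldha at least 95.6% of lactate dehydrogenase. Eno1 held at least 97.1% of the sum of Eno1, Eno2 and Eno3. The near-identical gene Eno1b, at 13.1, 14.3 and 15.9 FPKM, was not in that sum. Pgk2 and Pklr were listed at 0 in all 3 libraries. Eno2 and Eno3 were at 7.40 and 5.17 FPKM in the control and at 5.38 and 3.05 FPKM after Fn1 knockdown. Ldhb, the heart-type subunit, was at 16.7, 17.7 and 11.0 FPKM. Among 12 Slc2a transporters, Slc2a1 held 61.2%, 61.0% and 67.1%. Slc2a10 and Slc2a8 followed with 10.7% and 9.87% in the control, and the insulin-responsive Slc2a4 was at 0.127 FPKM or less.

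**Figure D3:**
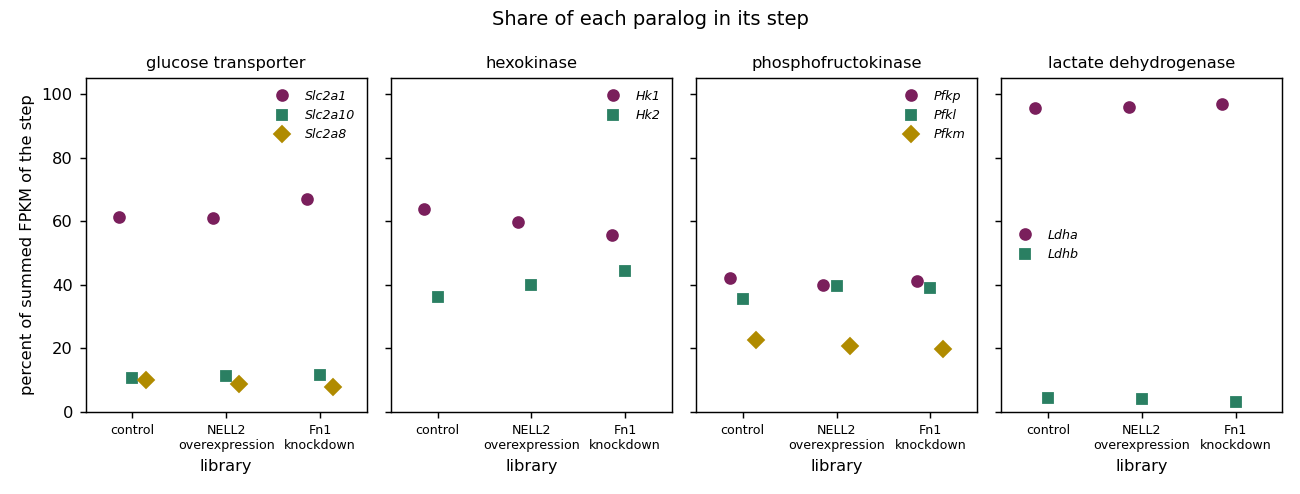
Share of each paralog in the summed FPKM of its step, in percent, for the 3 libraries, where each point is 1 gene in 1 library. The aldolase, enolase and single-gene steps and the minor transporters and hexokinases are not drawn. Hk1 goes from 63.8% in the control to 55.7% after Fn1 knockdown while Hk2 goes from 36.0% to 44.2%, and Ldha stays at 95.6% or more.

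Glycolytic genes have many processed pseudogenes, which can take reads from them. A search of the coding sequence of the members against all other transcripts, at 90% identity or more over 100 bases or more, found 20 copies of Ldha, 9 each of Eno1 and Pkm, 5 of Aldoa, 4 of Pgk1 and 2 of Tpi1, and none of the other 4 genes. FPKM values were available for 13 of the Ldha copies, 5 each for Eno1 and Pkm, 4 for Aldoa, 2 for Pgk1 and 1 for Tpi1. Few of those reached 1 FPKM, and copies without values are not in the shares below. The copies held 5.30%, 5.35% and 5.53% of the sum with Eno1, mostly in Eno1b (13.1, 14.3 and 15.9 FPKM) and the pseudogene Gm4735 (10.6, 12.0 and 12.8 FPKM). They held 1.95% to 2.13% of the sum for Pgk1, where Pgk1-rs7 and Gm5537 match it at 100% identity, and under 1% for Tpi1, Pkm, Ldha and Aldoa. With the copies added in, Eno1 differed from the control by 0.14 with NELL2 overexpression and 0.22 after Fn1 knockdown, as without them. Pfkp shares 748 exon bases with Pitrm1 on the opposite strand, at 34.9, 32.4 and 41.3 FPKM, and whether the counting used strand is not stated. Gapdh, which is not among the 10 genes, was at 491, 513 and 402 FPKM. Its 199 copies in the table held 59.2%, 59.8% and 64.2% of their sum with Gapdh, and its difference after Fn1 knockdown was -0.29 alone and -0.10 with the copies added.

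Other genes of glucose metabolism were taken from lists chosen by function. Highest and lowest differences named below are among genes of a list at 10 FPKM or more in any of the 3 libraries, and genes at lower levels reached wider values in some lists. Where another filter, pseudocount, scaling or the sum with copies moved a median by more than 1.5 times, its range over these settings is given in brackets. Of 19 further glycolytic enzymes, 10 reached 1 FPKM in a library and none was called in any comparison. With NELL2 overexpression 6 were higher and 4 lower than the control, with a median of 0.069 (0 to 0.085). The highest difference was 0.37, for Pfkl, and the lowest -0.044, for Gpi1, the phosphoglucose isomerase. After Fn1 knockdown 3 were higher and 7 lower, with a median of -0.22. This median was -0.13 with near-identical copies added to each gene, and -0.031 over all 19 genes without the filter on low values. The highest was 0.61, for Adpgk, a kinase that uses ADP (19.7 to 30.6 FPKM), and the lowest -0.56, for Ldhb. The 13 genes listed as other glucose transporters were taken from the Slc2a and Slc5a families, and the cargo of each carrier was not examined. Of these, 6 reached 1 FPKM, none reached 10 FPKM, and the medians were 0.14 (0.015 to 0.20) and -0.073 (-0.095 to 0.33). The last median turned positive with a filter of 5 FPKM, which left 1 gene.

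Genes that handle lactate and pyruvate and those that regulate phosphofructokinase were not called in any comparison either. Of 18 lactate and pyruvate genes, 17 reached 1 FPKM. With NELL2 overexpression 13 of these were higher and 4 lower, with a median of 0.060, and after Fn1 knockdown 9 were higher and 8 lower, with a median of 0.0032 (-0.0048 to 0.057). Among those at 10 FPKM or more, the lactate carrier Slc16a1 had the highest difference with NELL2 overexpression, at 0.24 (10.0 to 12.0 FPKM). Pdhx, of the pyruvate dehydrogenase complex, had the lowest of them, at -0.0071. After Fn1 knockdown Pdhx had the highest of them, at 0.27, and the mitochondrial pyruvate carrier Mpc2 the lowest, at -0.25. Genes at lower levels reached wider values. Of 12 regulators and gluconeogenic enzymes 8 reached 1 FPKM, with medians of 0.024 (0.011 to 0.050) and 0.077 (0.0062 to 0.092). Pck2 and G6pc3 were the only ones at 10 FPKM or more, at 0.092 and 0.019 with NELL2 overexpression and at 0.29 and -0.050 after Fn1 knockdown.

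The pentose phosphate pathway, which branches from glucose 6-phosphate and makes NADPH, held the only gene of these lists that was called against the control. All 8 of its genes reached 1 FPKM. With NELL2 overexpression 5 were higher and 3 lower, with a median of 0.064, from H6pd at 0.23 to Pgls, the lactonase, at -0.52. After Fn1 knockdown 7 were higher and 1 lower, with a median of 0.31. Taldo1, the transaldolase, rose from 35.6 FPKM in the control to 118 FPKM after Fn1 knockdown, a difference of 1.70, and was at 33.8 FPKM with NELL2 overexpression. Pgls was the gene that was lower, at 42.4, 29.3 and 29.5 FPKM, a difference of -0.51. Pgd, the second NADPH-forming enzyme, was at 134 FPKM in the control and 220 FPKM after knockdown, and was named after its values were seen.

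No gene of glycogen metabolism or the tricarboxylic acid cycle was called in any comparison. Of 11 glycogen genes 9 reached 1 FPKM, with medians of 0.038 (0 to 0.039) with NELL2 overexpression and -0.085 (-0.093 to -0.025) after Fn1 knockdown. Among those at 10 FPKM or more, Gbe1, the branching enzyme, had the highest differences, 0.17 and 0.55. The phosphorylase Pygb had the lowest, -0.064 and -0.31. All 16 genes of the tricarboxylic acid cycle reached 1 FPKM, with medians of 0.023 (0.0081 to 0.023) and 0.0064 (-0.0017 to 0.015). Their differences ran from -0.21, for Idh3g, to 0.12, for Sucla2, with NELL2 overexpression and from -0.18, for Sucla2, to 0.26, for Suclg1, after Fn1 knockdown.

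Known activators of glycolytic genes were examined with their other targets. Hif1a was at 61.6, 67.3 and 53.3 FPKM, differences of 0.12 and -0.20. Myc was at 16.3, 15.2 and 20.3 FPKM, differences of -0.088 and 0.30, opposite in sign to those of Hif1a. Of the 9 hypoxia-inducible factors and regulators 8 reached 1 FPKM, with medians of 0.049 and -0.019 (-0.026 to 0.012). Among those at 10 FPKM or more, Arnt (0.023 with NELL2 overexpression) and Egln2 (0.17 after Fn1 knockdown) were at the other ends from Hif1a. Of 19 hypoxia-inducible targets outside glycolysis 18 reached 1 FPKM. With NELL2 overexpression 14 were higher and 4 lower, with a median of 0.080. Those at 10 FPKM or more ran from Bnip3 at 0.47 (17.7 to 24.9 FPKM) to Kdm3a at -0.24. After Fn1 knockdown 10 were higher and 8 lower, with a median of 0.12. Those at 10 FPKM or more ran from Ero1l at 0.53 (18.1 to 26.7 FPKM) to Ddit4 at -0.24. None of the targets was called against the control. Ak4, an adenylate kinase, was called between the treated libraries, at 1.39 and 4.33 FPKM, and was higher after Fn1 knockdown. Of 8 genes for MYC and glucose-sensing factors 6 reached 1 FPKM, with medians of 0.049 (0.022 to 0.056) and 0.25 (0.095 to 0.27). Among those at 10 FPKM or more, Txnip, which is induced by glucose and restrains its uptake, was highest in both comparisons (0.45 and 0.36). Max, the partner of MYC, was lowest of them (-0.26 and -0.18).

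**Figure D4:**
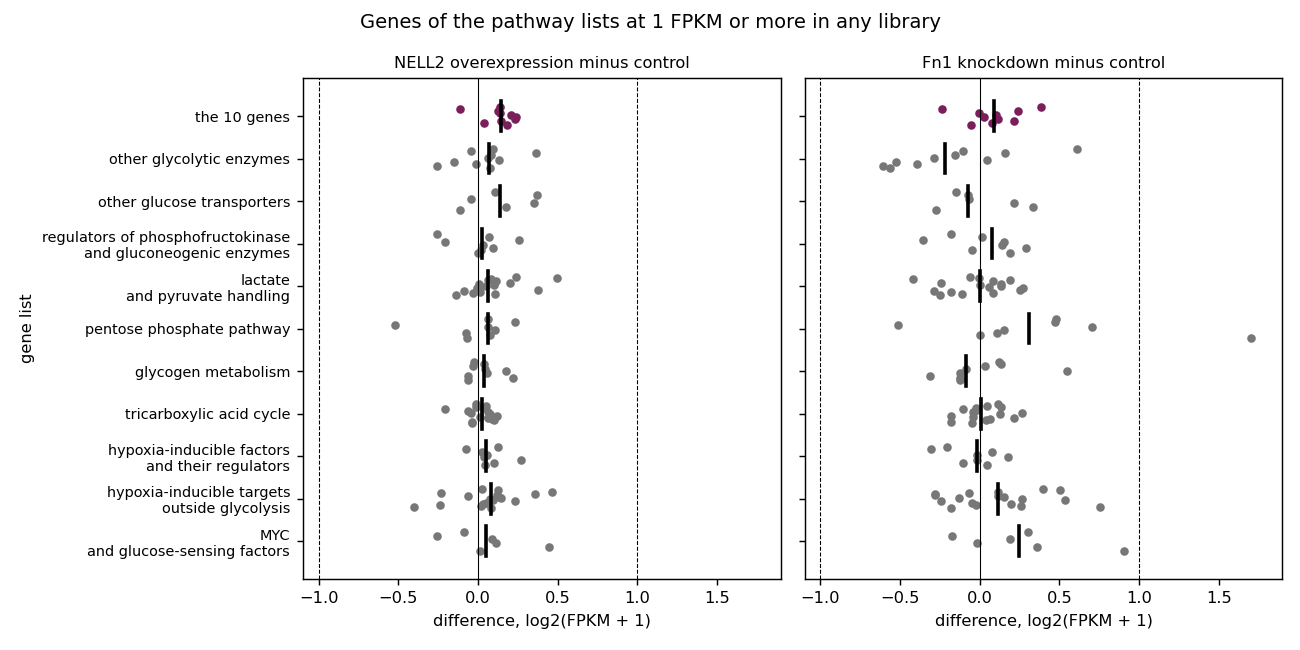
Difference in log2(FPKM + 1) from the control for each gene at 1 FPKM or more in any library, by list, with NELL2 overexpression on the left and Fn1 knockdown on the right; thick bars are medians and dashed lines mark 2-fold. Taldo1 of the pentose phosphate list, at 1.70 after Fn1 knockdown, is the only point past the dashed lines.

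Genes were also taken by their distance to the pair of median differences of the 10 genes, with NELL2 overexpression and after Fn1 knockdown. That pair is a summary and not a pattern shared by each of the 10 genes. Their own differences ran from -0.11 to 0.24 with NELL2 overexpression and from -0.24 to 0.39 after Fn1 knockdown. Of 6056 genes at 10 FPKM or more in the control and outside the lists, the 5 nearest to the pair of member medians were Hbp1, Sdc3, Rps15a, Apol9b and Mrpl52. Each lay within 0.0083 of that pair on the log2 scale.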

How the data were processed

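Polyadenylated RNA of ST2 cells was sequenced by the authors (MGISEQ-2000, paired reads) and mapped with HISAT2 to mouse transcripts (GRCm38, per the submitters' processing notes, which also name DESeq). The deposited values were FPKM per gene name, computed by the authors. The methods mention a strand alignment step without saying whether counting used strand, and the program that computed FPKM and its annotation are not given in the sources used here. FPKM is scaled to the total of a library, so values are relative.

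From these values log2(FPKM + 1) was compared between libraries. The rule of size was 1 or more on this scale with 1 FPKM or more in either library, over all rows. A name on several rows was summed (Itgam), and no test was run. Of the lists, 1 gene is not reported here. The genes and lists were chosen with earlier results of these data known. Apart from the 10 members and Nell2 and Fn1, genes named were those called and those with the highest and lowest difference in a list at 10 FPKM or more. Other genes (Gapdh, paralogs, neighbours on the genome, Pgd, Myc) were named after their values were seen. Copies were searched with blastn (BLAST 2.17.0) in GENCODE M21 transcripts (GRCm38). Depth was inferred from the worth of 1 fragment at low FPKM, given length, in genes with 1 transcript of 600 bases or more. The rule was tested on simulated data. Python 3.11.15 and pandas 2.3.3 were used.

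Alternatives were pseudocounts of 0.1 and 5, 3 scalings, summing with copies, folds of 1.5 and 4, and a filter of 5 FPKM or none; a fold of 1.1, alone and with the other settings, was added after the data were seen.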

Additional observations from a re-analysis of the deposited data

How the results depend on the processing

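With 1 library in each group no spread between cultures is known, and every difference is one between libraries. No paired analysis was possible because no group held a second library, nor could any library be dropped. The number of the 10 genes called stayed at 0 in all 3 comparisons under every alternative but the 1.1-fold limit, which gave 7 with NELL2 overexpression, 4 after Fn1 knockdown and 4 between the treated libraries. Together with median-of-ratios scaling or without mitochondrially encoded genes, that limit gave 4 with NELL2 overexpression. Over the alternatives the median of the 10 genes ranged from 0.13 to 0.14 with NELL2 overexpression and from 0.078 to 0.095 after Fn1 knockdown. Of 210 values of single members under alternatives, 209 kept their sign; Pfkp after Fn1 knockdown changed from -0.0027 to 0.0055 when libraries were set to the same sum.

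List medians changed sign in 8 of 240 cases, and the cause was not tested. Without mitochondrially encoded genes in the sum, lactate and pyruvate genes (-0.0048) and tricarboxylic acid cycle genes (-0.0017) did so after Fn1 knockdown. The latter were at 0.0013 with the same sum and 0.0022 with median-of-ratios scaling between the treated libraries. With a filter of 5 FPKM, genes listed as other glucose transporters went from -0.073 to 0.33 after Fn1 knockdown (only Slc2a10 was left). Hypoxia-inducible factors were at 0.012 in that comparison. Between the treated libraries the transporters went from -0.15 to 0.16 and glycogen genes were at 0.0033.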
